A study of Mus musculus with 16 samples.

Results

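The genes described here are 9 genes of the integrated stress response that centre on the transcription factor ATF4: Atf4, Atf5, Ddit3, Trib3, Chac1, Asns, Psat1, Phgdh and Slc7a11. They were chosen by name, with earlier results of these data known. Every probe set annotated to one of them on either chip was taken. This gave 14 probe sets among the 24833 probe sets other than controls, and 9 genes among 13674 named genes. The study compared transcripts of mouse endothelial cell cultures with and without VE-cadherin (VEC, the product of Cdh5), which holds endothelial cells together at adherens junctions, at low and at high density, and its title asks which genes rise with VEC. All cells, VEC-positive ones included, carry the same label: endothelial cells grown from mouse embryonic stem cells in which both copies of the VE-cadherin gene were inactivated. The sources used here do not say what made the second line VEC-positive, or how many clones or cultures each line stands for. The 4 conditions were VEC-null sparse, VEC-null confluent, VEC-positive sparse and VEC-positive confluent, and all cells were starved in MCDB 131 with 1% bovine serum albumin over 36 h before lysis. Each condition is 1 cRNA sample made from 15 µg of total RNA and hybridised to 2 copies of chip A (MG_U74Av2) and 2 copies of chip B (MG_U74Bv2), which makes 16 arrays. The p-values below therefore measure the spread between hybridisations of the same cRNA, which is technical, and not the spread between cultures. The exception is a fit with copies averaged, described below, whose p-values do not measure the spread between cultures either.

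The integrated stress response is set off when kinases phosphorylate the translation factor eIF2α, for instance under amino acid shortage (GCN2), misfolded protein in the endoplasmic reticulum (PERK), viral RNA (PKR) or lack of heme (HRI). General translation slows, while upstream reading frames let ribosomes translate Atf4 more, and ATF4 protein then pairs with C/EBP proteins on composite C/EBP-ATF elements of genes for amino acid synthesis, transport, tRNA charging and redox balance. Arrays measure transcripts only, so the translation of Atf4 and the phosphorylation of eIF2α were not measured. In endothelial cells, ATF4 and the serine and asparagine enzymes are known for supporting growth and vessel sprouting.

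Promoter sequences are shown for the members that carry letters of this element or of close variants. RefSeq (GRCm38.p6) gave at least 1 promoter for all 9 genes, and the 250 bases before each start site were searched on both strands for TGATGNAA, the letters of the composite element, and for TGACGCAA and TGGTGCAA, 2 spellings picked after the members' promoters had been read. No stretch of letters can match more than 1 of these motifs. Capitals mark the matches, each stretch runs 5′ to 3′ on the strand of the gene, and a match within a window is no evidence that a factor binds there.
Asns, chr6:7693210-7693257, minus strand: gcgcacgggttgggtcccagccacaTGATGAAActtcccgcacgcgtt
Slc7a11, chr3:50443628-50443704, minus strand: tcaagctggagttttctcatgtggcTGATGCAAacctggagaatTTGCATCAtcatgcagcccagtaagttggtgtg
Chac1, chr2:119350992-119351081, plus strand: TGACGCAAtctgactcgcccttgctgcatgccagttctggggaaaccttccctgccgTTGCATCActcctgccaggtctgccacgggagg
Trib3, chr2:152344061-152344118, minus strand: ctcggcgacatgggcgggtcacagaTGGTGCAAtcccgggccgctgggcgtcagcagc
Psat1, chr19:15925163-15925220, minus strand: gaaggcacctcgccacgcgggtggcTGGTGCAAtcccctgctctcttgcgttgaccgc
Asns held TGATGAAA from 23 to 16 bases before its start. Slc7a11 held the element once on each strand, from 66 to 59 and from 47 to 40 bases before the start. Chac1 held it on the opposite strand from 193 to 186 bases before the start, and TGACGCAA from 250 to 243. Trib3 held TGGTGCAA from 33 to 26 bases before its start, and Psat1 held it from 136 to 129 bases before the second of its 2 listed starts. The windows of Atf4, Atf5, Ddit3 and Phgdh held none of these letters. Of all 32851 promoter windows of this length, 3.45% held TGATGNAA, 0.438% TGACGCAA and 0.463% TGGTGCAA.

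The values are MAS5 signals, intensities that were scaled to a target of 500 on every array, and changes were tested with limma on log2(signal + 50), so that folds of dim genes are understated. A probe set was tested if the mean of at least 1 condition lay above a signal of 160 on chip A or 231 on chip B, which kept 14301 probe sets. A gene is said to have risen or fallen where its Benjamini-Hochberg adjusted p was below 0.05 and its change was at least 1 on the log2 scale. Of the 14 member probe sets 10 were tested and 4 were dim in every condition. Each gene is represented by its brightest probe set, chip A before chip B, and by this rule 7 of 9 genes could be tested. The other two are Phgdh, whose single probe set 162168_r_at read 78.7 to 117 on all arrays, and Slc7a11, whose chip A probe set 101713_at read 17.9 to 88.6. Slc7a11 also has a brighter probe set on chip B, 116709_at, which is given beside the others and counted apart. Signals of different probe sets are not compared with each other.

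Copies of a condition correlated at 0.951 to 0.989 over all probe sets of a chip. As a sign of RNA quality, the 3′ signal divided by the 5′ signal ranged from 0.903 to 1.23 for Gapdh and from 1.11 to 1.33 for beta-actin. The 3′ Gapdh signal on chip A was 12788 to 12920 in confluent VEC-positive cells and 16729 to 21421 in the other conditions. Of 15 endothelial markers, 14 were on the chips and all 14 were tested, among them Cdh5, Kdr and Tie1. Cdh5 itself read 1268 and 1399 on average in sparse VEC-null and VEC-positive cells and 2608 and 2566 in confluent ones, so its probe set does not separate the lines and does not check the labels. Markers of other cells were mostly dim. Under the level needed for testing were 6 of 7 embryonic stem cell markers, 6 of 10 smooth muscle and fibroblast markers, 6 of 7 blood cell markers and 4 of 6 epithelial markers, and none was at 0. The summed signal of the blood cell markers was 1086 to 1423 in confluent VEC-null cells, from Cd68, and 565.6 to 694.5 in the others. That of the epithelial markers was 1279 to 1457 in sparse VEC-positive cells, from Krt19, and 425.7 to 703.9 in the others. The stem cell markers summed to 340.9 to 526 and the smooth muscle and fibroblast markers to 953.7 to 1171. Within the latter list Acta2 fell with density in both lines and with VEC at both densities (VEC-null means of 371 when sparse and 123 when confluent, VEC-positive means of 133 and 5.55). Tagln fell and Pdgfrb rose with density in VEC-null cells, and Dcn rose with VEC at both densities. The part of any of these in the results was not tested.

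**Figure D1:**
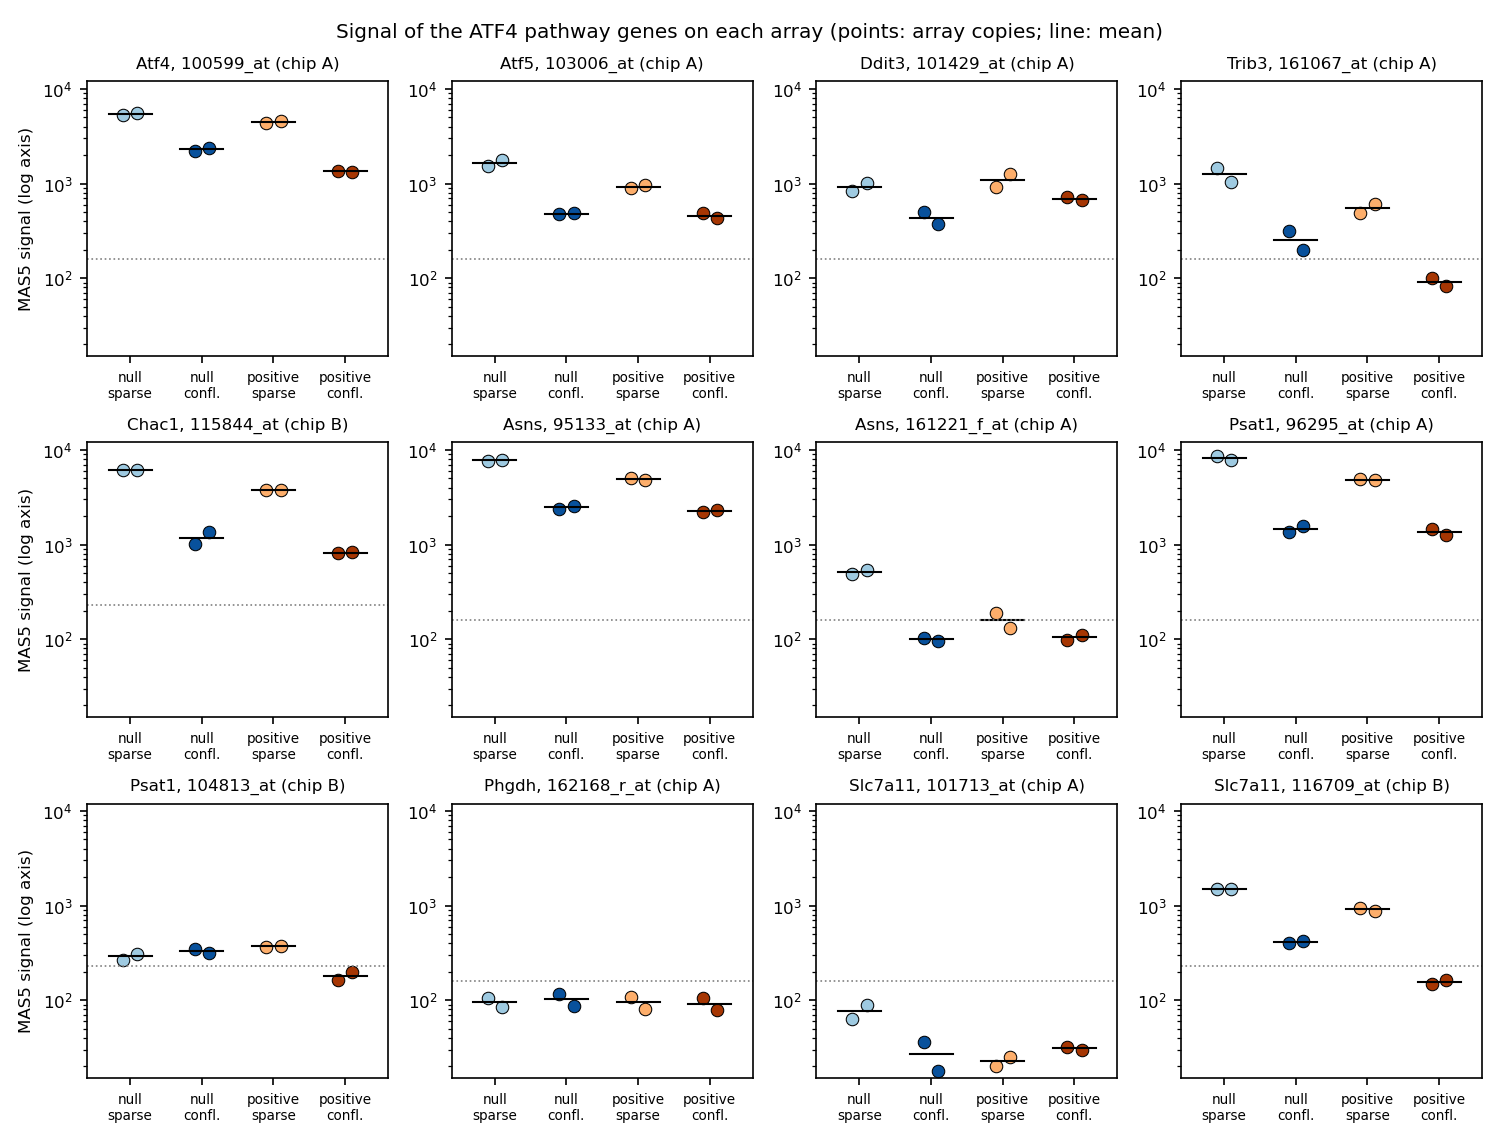
MAS5 signal (log axis) of 12 of the 14 member probe sets in the 4 conditions, with each array copy as a point, the mean of the copies as a line, and the level needed for testing as a dotted line (160 on chip A, 231 on chip B). For the main probe sets of Atf4, Atf5, Ddit3, Trib3, Chac1, Asns and Psat1 and for the chip B probe set of Slc7a11, both sparse copies lie above both confluent copies within each line. The share of all tested probe sets that separate in this way was not counted. For density, 46.6% of them in VEC-null and 47.5% in VEC-positive cells had an adjusted p below 0.05 in either direction.

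In VEC-null cells all 7 tested members fell, with log2 changes of -1.01 to -2.46, where 7.4% of all tested probe sets fell and 9.08% rose. In VEC-positive cells 5 of 7 fell and the other two, Atf5 and Ddit3, had changes of -0.94 and -0.60, where 7.21% of all tested probe sets fell and 8.13% rose. The median change of the 7 members was -1.68 in VEC-null cells and -1.69 in VEC-positive cells, against -0.002 and 0.015 over all tested probe sets. No tested member rose with density. As the members were chosen with earlier results of these data known, setting them beside these shares is a description and not a test. In these bulk samples fewer cells of a type and less RNA per cell cannot be told apart. The endothelial markers moved the other way: their summed signal was 16980 to 17090 in sparse and 61320 to 61440 in confluent VEC-null cells, 27460 to 30200 in sparse and 58090 to 59190 in confluent VEC-positive cells, and 10 and 9 of the 14 rose. Their part in the members' change, and that of Gapdh, was not tested.

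Among the transcription factors, Atf4 is the effector of the response. Its probe set 100599_at read 5318 and 5513 in sparse VEC-null cells, 4391 and 4608 in sparse VEC-positive cells, 2229.8 and 2406 in confluent VEC-null cells, and 1372 and 1342 in confluent VEC-positive cells. The 4 conditions were ordered in that way with no overlap between any neighbours, and confluent VEC-positive cells were lowest. With density Atf4 fell by 1.21 (SE 0.079, adjusted p = 1.6e-06) in VEC-null and by 1.69 (SE 0.079, adjusted p = 2e-07) in VEC-positive cells on the log2 scale. In folds of signal plus 50 these are 2.31-fold and 3.23-fold lower values.

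Atf5 encodes a relative of ATF4 that is also translated through upstream reading frames and is known to be induced by ATF4. Its signals were 1536 and 1794 in sparse VEC-null, 904 and 958 in sparse VEC-positive, 480.5 and 485 in confluent VEC-null, and 488 and 433 in confluent VEC-positive cells. Sparse VEC-null cells were highest, and the confluent conditions overlapped. The fall in VEC-null cells was 3.21-fold, with a log2 change of -1.68 (SE 0.12, adjusted p = 2e-06). In VEC-positive cells the change was -0.94 (SE 0.12, adjusted p = 0.00011), short of the size needed for a call, and it passed with each array scaled to the same median (-1.14), with quantile normalization (-1.01) and without confluent copy 1 (-1.02).

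Ddit3 encodes CHOP, the partner of ATF4 that is known for promoting cell death under lasting stress. Its arrays read 832 and 1016 in sparse VEC-null, 914 and 1266 in sparse VEC-positive, 497 and 372 in confluent VEC-null, and 720.2 and 667 in confluent VEC-positive cells. The sparse conditions overlapped, confluent VEC-null cells were lowest, and confluent VEC-positive cells lay between. Ddit3 had the smallest density changes of the 7 tested members in both lines. It fell by 1.01 (SE 0.18, adjusted p = 0.0011) in VEC-null cells, just past the size needed, and its change was -0.60 (SE 0.18, adjusted p = 0.019) in VEC-positive cells. The call in VEC-null cells was lost without sparse copy 2 (-0.88) and without confluent copy 2 (-0.83), as well as with an offset of 200 (-0.83) or the chromosome median subtracted (-0.98).

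Trib3 encodes a pseudokinase that is induced by ATF4 and CHOP and is known to restrain ATF4 in return. It read 1468 and 1042 in sparse VEC-null, 489 and 608 in sparse VEC-positive, 313 and 201 in confluent VEC-null, and 101 and 82.2 in confluent VEC-positive cells. None of the conditions overlapped, and in confluent VEC-positive cells the signal was under the level needed for testing. The density changes were -2.09 (SE 0.21, adjusted p = 3.2e-05) in VEC-null and -2.07 (SE 0.21, adjusted p = 3.8e-05) in VEC-positive cells, 4.27-fold and 4.21-fold lower. Trib3 had the largest SE of the 10 tested member probe sets.

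Chac1 encodes an enzyme that degrades glutathione and is a known target of the ATF4 and CHOP branch. On chip B it read 6124 and 6096 in sparse VEC-null, 3765 and 3757 in sparse VEC-positive, 1026 and 1347 in confluent VEC-null, and 819.7 and 829 in confluent VEC-positive cells. The order was that of Atf4, again with no overlap between neighbours. Chac1 fell 5.03-fold (log2 -2.33, SE 0.12, adjusted p = 3.5e-07) in VEC-null and 4.36-fold (log2 -2.12, SE 0.12, adjusted p = 6.2e-07) in VEC-positive cells.

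Slc7a11 encodes the light chain of the cystine and glutamate exchanger that supplies cysteine for glutathione. Its chip B probe set read 1499 and 1487 in sparse VEC-null, 951 and 874 in sparse VEC-positive, 405 and 421 in confluent VEC-null, and 149 and 163 in confluent VEC-positive cells. All conditions stood apart, and confluent VEC-positive cells were under the level needed for testing. It fell by 1.74 (SE 0.14, adjusted p = 8.3e-06) and by 2.22 (SE 0.14, adjusted p = 1.7e-06) on the log2 scale with density in the VEC-null and VEC-positive lines. Its dim chip A probe set read 64.2 and 88.6 in sparse VEC-null cells and 17.9 to 36.5 on the other arrays.

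Asns encodes asparagine synthetase, the enzyme through which the amino acid response element was worked out. Probe set 95133_at read 7706 and 7916 in sparse VEC-null, 5002 and 4774 in sparse VEC-positive, 2406 and 2542 in confluent VEC-null, and 2193 and 2315 in confluent VEC-positive cells. The order followed that of Atf4 without overlap, although the confluent conditions were close. Asns fell 3.12-fold (log2 -1.64, SE 0.076, adjusted p = 1.8e-07) in VEC-null and 2.14-fold (log2 -1.10, SE 0.076, adjusted p = 2.5e-06) in VEC-positive cells, where the change was -0.97 and no longer a call after quantile normalization. The second probe set, 161221_f_at, whose suffix marks probes shared by a sequence family, read 489 and 544 in sparse VEC-null cells and 96.6 to 190 on the other arrays. By that probe set Asns fell in VEC-null cells (log2 -1.91, adjusted p = 1.4e-05), while the change in VEC-positive cells was -0.44 (adjusted p = 0.06) and started from signals of 190 and 133. Only the mean of sparse VEC-null cells lay above the level needed for testing, so the call rests on the condition that let the probe set through.

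Psat1 encodes phosphoserine aminotransferase, the second step of serine synthesis, and Phgdh the dehydrogenase of the first step. Psat1 probe set 96295_at read 8718 and 7761 in sparse VEC-null, 4905 and 4772 in sparse VEC-positive, 1356 and 1566 in confluent VEC-null, and 1451 and 1273 in confluent VEC-positive cells. The confluent conditions overlapped, and both lay far below the sparse ones. Psat1 had the largest fall of the tested members in VEC-null cells, 5.49-fold (log2 -2.46, SE 0.10, adjusted p = 9.3e-08), and fell 3.47-fold (SE 0.10 on the log2 scale, adjusted p = 6.9e-07) in VEC-positive cells. The probe sets of Psat1 disagreed: 104813_at on chip B read 164 to 378, changed by 0.17 (adjusted p = 0.54) in VEC-null and by -0.87 (adjusted p = 0.0067) in VEC-positive cells, and the remaining pair read 10.7 to 133. Phgdh was too dim to test, and its conditions overlapped throughout, with 85.4 and 106 in sparse VEC-null and 86.9 and 117 in confluent VEC-null cells.

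**Figure D2:**
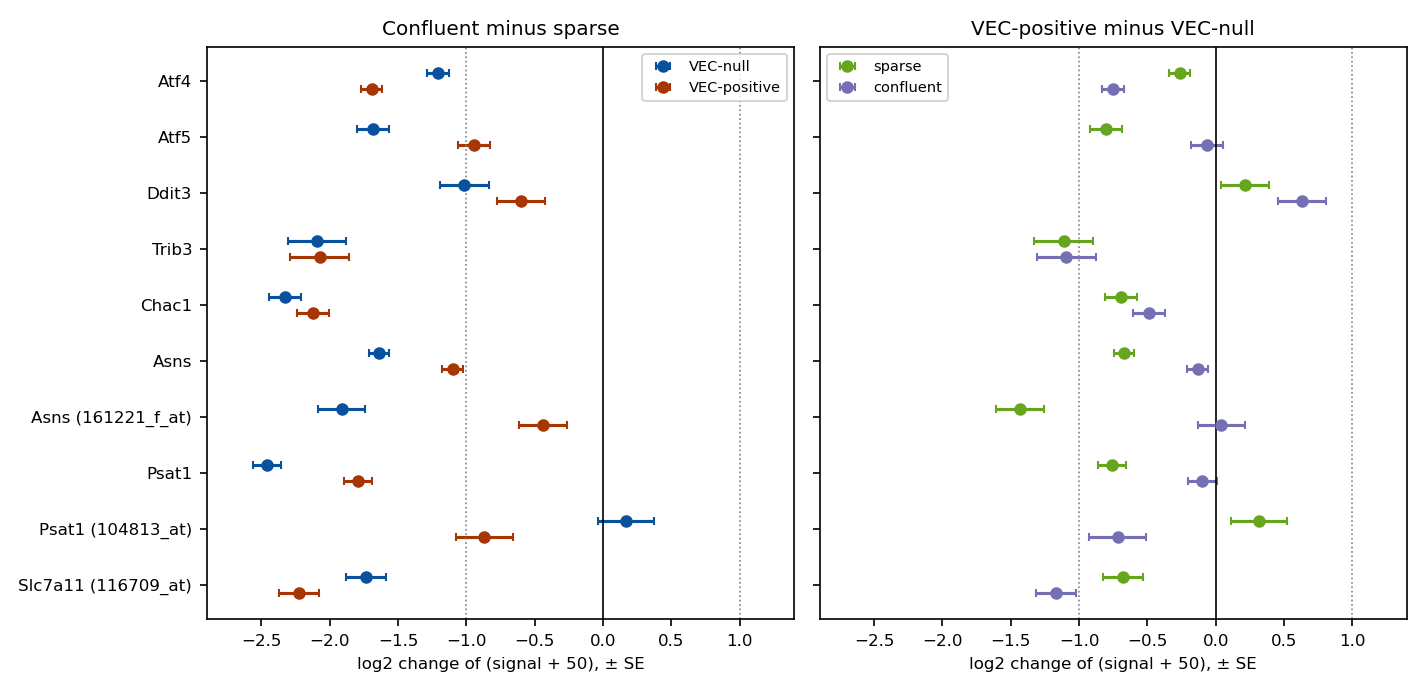
Log2 change of signal plus 50 (x axis, with SE bars) for the 10 tested member probe sets, confluent minus sparse in each line (left) and VEC-positive minus VEC-null at each density (right), with dotted lines at a change of 1 either way. On the left the main probe sets lie between -0.60 and -2.46, and on the right between 0.63 and -1.11.

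A second fit averaged the copies, so that the 4 cRNA samples were the units and line and density were additive terms. The density effect passed for Atf4 (log2 -1.45, adjusted p = 0.02), Atf5 (-1.31, adjusted p = 0.025), Trib3 (-2.08, adjusted p = 0.00086), Chac1 (-2.23, adjusted p = 7.3e-06), Asns (-1.37, adjusted p = 0.026) and Psat1 (-2.13, adjusted p = 0.0036). Slc7a11 on chip B passed too (-1.98, adjusted p = 2.3e-05), while Ddit3 did not (-0.81, adjusted p = 0.12). Neither did the second probe sets 161221_f_at of Asns (-1.18, adjusted p = 0.092) and 104813_at of Psat1 (-0.35, adjusted p = 0.57). In this fit 4.13% of all tested probe sets fell with density. The units are single cRNA samples, and the fit has 1 residual degree of freedom per chip beside limma's prior. That residual is the part of the density change that was unequal in VEC-null and VEC-positive cells. The p-values of this fit therefore do not measure the spread between cultures. The prior had 7.91 degrees of freedom on chip A and 23.7 on chip B. Adjusted p-values from different chips, such as those of Trib3 and Chac1, therefore cannot be ranked against each other.

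Between the lines, 6 of 7 tested members had values below 0 (lower with VEC) at each density, where 52.2% of all tested probe sets in confluent and 52.1% in sparse cells lay below 0. In confluent cells 1 of 7 tested members, Trib3, fell with VEC, where 3.62% of all tested probe sets fell. In sparse cells the count was also 1 of 7, again Trib3, where 4.27% fell. When confluent, the 7 members had a median of -0.13, and when sparse, one of -0.69, while the medians over all tested probe sets were -0.027 and -0.028. Trib3 was 2.13-fold lower in confluent (log2 -1.09, SE 0.21, adjusted p = 0.0038) and 2.16-fold lower in sparse VEC-positive cells (log2 -1.11, SE 0.21, adjusted p = 0.0027). These calls rest on single copies: the confluent change was -0.83 without VEC-null copy 1 and -0.99 without VEC-positive copy 2, and the sparse change was -0.88 without VEC-null copy 1 and -0.97 without VEC-positive copy 1. With copies averaged the effect of VEC on Trib3 was -1.10 (adjusted p = 0.07), and 0 of 7 tested members passed, where 0.825% of all tested probe sets fell and 1.41% rose.

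By their main probe sets, 5 further members were lower with VEC in sparse cells by less than the size needed. On the log2 scale these were Atf5 (-0.80), Psat1 (-0.76), Chac1 (-0.69), Asns (-0.67) and Atf4 (-0.27). Their adjusted p-values were 0.00012 to 0.025, where 38.7% of all tested probe sets had an adjusted p below 0.05. In confluent cells Atf4 changed by -0.75 (adjusted p = 0.00011) and Chac1 by -0.49 (adjusted p = 0.011), where that share was 32.9%. Slc7a11 on chip B fell in confluent cells (log2 -1.17, adjusted p = 0.00027; -0.79 and no call with an offset of 200) and changed by -0.68 in sparse cells (adjusted p = 0.0046), and with copies averaged its VEC effect did not pass (-0.93, adjusted p = 0.084). The confluent values of Atf5 (-0.06), Asns (-0.13) and Psat1 (-0.10) had adjusted p-values of 0.71, 0.22 and 0.51. By its second probe set, 161221_f_at, Asns fell with VEC in sparse cells (-1.43, adjusted p = 0.00018) and changed by 0.04 in confluent cells (adjusted p = 0.88). That fall rests on sparse VEC-null cells, the condition that let the probe set through. Psat1 probe set 104813_at changed by 0.32 in sparse (adjusted p = 0.26) and by -0.72 in confluent cells (adjusted p = 0.024).

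Ddit3 was the tested member with values above 0 in both of these comparisons, 0.63 in confluent (adjusted p = 0.022) and 0.22 in sparse cells (adjusted p = 0.37). Ddit3 lies on chromosome 10, whose 631 tested probe sets had a median of 0.44 in confluent and 0.37 in sparse cells for the same comparisons. The medians of the other members' chromosomes lay between -0.17 and 0.003. With the median of its chromosome subtracted Ddit3 stood at 0.19 and -0.15, and the part of the chromosome in the difference was not tested further.

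The interaction, the density change in VEC-positive minus that in VEC-null cells, passed for 0 of 7 members by their main probe sets, where 12.2% of all tested probe sets passed in either direction, 5.89% upward and 6.31% downward. At an adjusted p below 0.05, which 28.5% of all tested probe sets had, and with changes under 1, Atf5 (0.74, SE 0.16, adjusted p = 0.0081), Psat1 (0.66, SE 0.14, adjusted p = 0.0081) and Asns (0.54, SE 0.11, adjusted p = 0.005) had positive values, which means a smaller fall in VEC-positive cells. Atf4 had the opposite sign (-0.49, SE 0.11, adjusted p = 0.01), a larger fall in VEC-positive cells. Slc7a11 on chip B had a value of the same sign and size (-0.49, SE 0.205), with an adjusted p of 0.11. The values of Ddit3 (0.41), Chac1 (0.20) and Trib3 (0.02) had adjusted p-values of 0.25, 0.40 and 0.97. Set beside the levels, the mean of confluent VEC-positive cells was lowest for Atf4 and, by their main probe sets, also for Asns, Psat1 and Atf5. Between the lines Atf4 changed by -0.27 when sparse and by -0.75 when confluent. The values of Asns, Psat1 and Atf5 were -0.67 to -0.80 when sparse and -0.06 to -0.13 when confluent. The interactions of different genes were not tested against each other. The second probe sets 161221_f_at of Asns (1.47, SE 0.24, adjusted p = 0.0019) and 104813_at of Psat1 (-1.04, SE 0.29, adjusted p = 0.026) passed in opposite directions. That of Asns was tested only because sparse VEC-null cells lay above the level needed, and its interaction rests on that condition. The Psat1 call was lost in 9 of 16 alternatives, where the value lay between -1.13 and -0.70, among them 5 of the fits without 1 copy.

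The lists that follow were, like the members, chosen with earlier results of these data known. Beside their density counts stand the shares of all tested probe sets. In VEC-null cells 7.4% fell and 9.08% rose, and in VEC-positive cells 7.21% fell and 8.13% rose. Upstream of Atf4, the eIF2α kinases and phosphatase subunits had 9 of 12 listed genes tested. On chip A the kinase genes Eif2ak1 (HRI), Eif2ak3 (PERK) and Eif2ak4 (GCN2) had density changes between -0.18 and 0.22, none of which passed. The chip B probe set of Eif2ak1 changed by -0.28 in VEC-null and -0.23 in VEC-positive cells without passing. Eif2ak2 (PKR) was dim on chip A and rose by 1.02 in both lines on its chip B probe set. Gcn1 changed by 0.04 and 0.08, while its second probe set, 106525_at, rose by 1.76 in VEC-null and changed by -0.795 in VEC-positive cells. Ppp1r15a, the stress-induced phosphatase subunit GADD34 that reverses eIF2α phosphorylation and is itself an ATF4 target, fell in both lines, from a mean of 1446 to 318 in VEC-null (log2 -2.03, adjusted p = 1.4e-06) and from 1098 to 394 in VEC-positive cells (log2 -1.37, adjusted p = 2.2e-05). Ppp1r15b, the constitutive subunit, had changes of 0.04 and -0.23. Impact, an inhibitor of GCN2 activation, fell in VEC-null cells (log2 -1.51, adjusted p = 3.6e-05) and changed by -0.10 in VEC-positive cells.

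Of the aminoacyl-tRNA synthetases that are known to be induced by ATF4, listed with the tRNA exporter Xpot, all 14 were tested, and 11 fell with density in VEC-null and 3 in VEC-positive cells. Their median changes were -1.26 and -0.74, and all 14 lay below 0 in both lines. The glycyl-tRNA synthetase gene Gars fell from a mean of 4931 to 1390 in VEC-null (log2 -1.80, adjusted p = 9.8e-07) and from 2776 to 1235 in VEC-positive cells (log2 -1.14, adjusted p = 2.4e-05). Eprs fell by 1.79 in VEC-null cells on the log2 scale and changed by -0.95 in VEC-positive cells, and its chip B probe set, 164230_at, gave the opposite ranking with -0.78 and -1.40. By main probe sets the interaction was above 0 for 14 of 14 genes, against 50.4% of all tested probe sets. Its median was 0.60, against 0.007 over all tested probe sets, and it passed for Xpot (1.29, adjusted p = 0.00056). The chip B probe set of Eprs gave -0.62, while the further probe sets of Wars (0.355 and 0.57) and Xpot (0.54) stayed above 0. Xpot lies on chromosome 10, whose tested probe sets had an interaction median of 0.027. The count of 3 in VEC-positive cells was 1 without VEC-positive sparse copy 2 and 5 with each array scaled to the same median. Of the 8 other synthetases tested, 3 fell in each line, with medians of -0.64 and -0.78 and an interaction median of -0.28. Within 250 bases before the start, 3 of the 9 ATF4-induced synthetases with a promoter sequence held TGATGNAA (Aars, Gars and Tars), and 0 of 6 of the other synthetases did. Of all 27025 genes with a promoter sequence, 1056 held it.

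The list of amino acid synthesis and one-carbon genes had 7 of 12 genes tested, of which 6 fell in VEC-null and 3 in VEC-positive cells, with medians of -1.74 and -0.92. The branched-chain aminotransferase gene Bcat1 had the largest change, from a mean of 2891 to 183 in VEC-null (log2 -3.69, adjusted p = 3.7e-07) and from 1981 to 265 in VEC-positive cells (log2 -2.69, adjusted p = 3e-06). Psph, the last step of serine synthesis after Psat1, fell by 1.54 and 1.83 on the log2 scale (adjusted p = 2e-06 and 7e-07). Of the mitochondrial folate genes, Mthfd1l fell in both lines (-2.23 and -2.06), and Mthfd2 fell in VEC-null cells (-2.26) and changed by -0.93 in VEC-positive cells. The interaction passed for Mthfd2 (1.34, adjusted p = 0.00019) and Bcat1 (1.01, adjusted p = 0.02). Shmt2 changed by -0.65 and 0.04 on its chip A probe set, which did not pass, and by -1.67 (a fall) and -0.86 on its chip B probe set. The VEC-positive count of 3 was 5 with each array scaled to the same median.

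Of 7 tested amino acid transporters, 2 fell in VEC-null and 1 in VEC-positive cells. Slc7a5, the large neutral amino acid transporter LAT1, fell from a mean of 4412 to 834 in VEC-null (log2 -2.34, adjusted p = 9.8e-08) and from 4340 to 830 in VEC-positive cells (log2 -2.32, adjusted p = 1.1e-07). Slc3a2, the heavy chain shared by LAT1 and the Slc7a11 exchanger, fell by 1.14 in VEC-null cells on the log2 scale and changed by -0.36 in VEC-positive cells. Slc1a4 had an interaction of 1.54 (adjusted p = 0.0074), with changes of -0.93 and 0.60. Slc7a1 was dim on chip A and fell in both lines by its chip B probe set (-1.26 and -1.27).

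The regulators and stress genes were divided. Of 13 tested, 6 fell and 4 rose with density in VEC-null cells, and 2 fell and 2 rose in VEC-positive cells, with medians of -0.44 and -0.47. Eif4ebp1, a repressor of cap-dependent translation, fell in both lines, with log2 changes of -2.80 and -1.95 (adjusted p = 1.4e-05 and 0.00017), and so did Atf3, a bZIP factor like ATF4, with -2.05 and -1.74 (adjusted p = 5.9e-07 and 1.9e-06) on its sequence-family probe set, while its second probe set, 104156_r_at, changed by -0.58 and -0.81 and passed in neither line. Ddit4, an inhibitor of mTORC1 that also responds to hypoxia and glucocorticoids, rose from a mean of 411 to 1415 in VEC-null (log2 1.67, adjusted p = 8.7e-06) and from 467 to 2027 in VEC-positive cells (log2 2.02, adjusted p = 2.6e-06). Nupr1 rose by 1.53 in VEC-null cells and changed by 0.92 in VEC-positive cells. The autophagy gene Map1lc3b rose by 1.53 in VEC-null cells and changed by 0.12 in VEC-positive cells, an interaction of -1.42 (adjusted p = 0.00013). Stc2 rose by 1.12 and 1.04 on chip A, while its chip B probe set changed by -0.32 and -1.10 without passing.

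**Figure D3:**
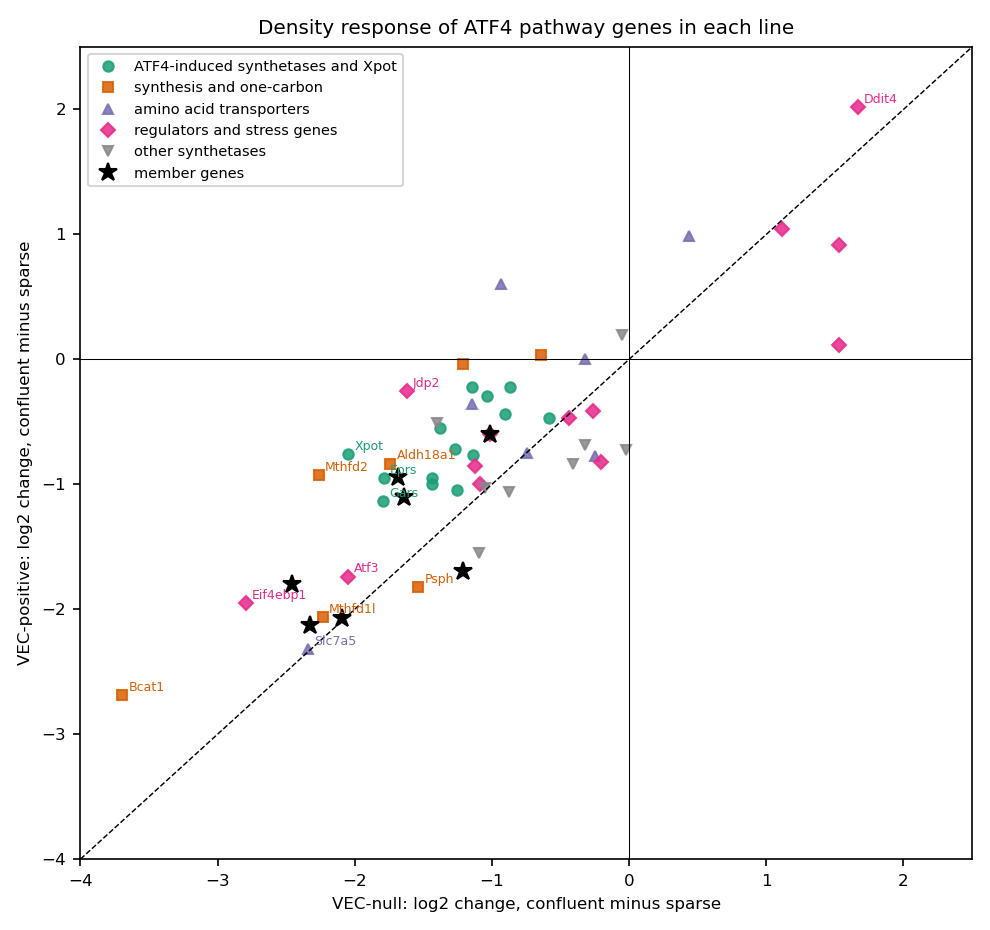
Log2 change with density (confluent minus sparse) in VEC-null cells (x axis) against VEC-positive cells (y axis) for the 7 tested members and 5 lists of genes, with a dashed line where both are equal. The 14 ATF4-induced synthetases lie above the dashed line and below 0 on both axes, and Ddit4 lies at the upper right with 1.67 and 2.02.

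The unfolded protein response has further branches, ATF6 and XBP1, whose targets are mainly chaperones. Of 19 tested genes on that list, 6 fell in VEC-null cells, among them Hspa5 (BiP, log2 -1.58, adjusted p = 3.1e-07) and Manf (-1.45, adjusted p = 3.1e-06), and 3 fell in VEC-positive cells: Sec61b (-1.71), Pdia6 (-1.61) and Sdf2l1 (-1.17). The medians were -0.68 and -0.20. Hspa5 changed by -0.83 in VEC-positive cells. Of 11 tested targets of NRF2, the antioxidant factor that also drives Slc7a11, Gclm fell in VEC-null cells (-1.25), and Taldo1 fell (-1.92) and Nfe2l2 itself rose (1.45) in VEC-positive cells, with medians of -0.37 and -0.65. Each of these is 1 of 11, near the shares of all tested probe sets. TGATGNAA was found in 0 of 18 and 0 of 10 genes with a promoter on these lists, and in 5 of 14 of the regulators and stress genes (Atf3, Nupr1, Herpud1, Vldlr and Jdp2). Of the ATF4-induced lists, the transporters held it in 0 of 6 and the synthesis and one-carbon genes in 1 of 9 (Got1, too dim to test). The eIF2α list held it in 0 of 8 genes, and the list of ATF4 partners and degradation genes in 0 of 12.

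**Figure D4:**
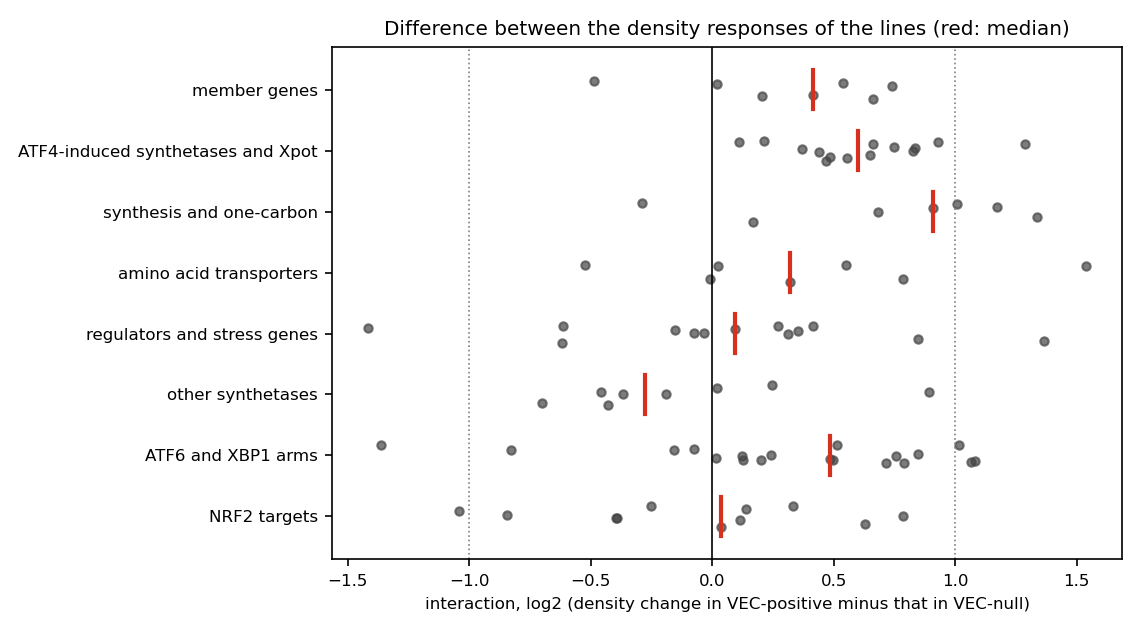
Interaction on the log2 scale (density change in VEC-positive minus that in VEC-null cells, x axis) for each tested gene of the members and 7 lists (points, spread vertically for legibility), with the median of each in red. Medians run from -0.28 for the other synthetases to 0.91 for the synthesis and one-carbon genes, with 0.41 for the members and 0.60 for the ATF4-induced synthetases.

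ATF4 binds as a dimer with C/EBP and AP-1 proteins and is degraded through the SCF complex of βTrCP, and 12 of 14 listed genes of these kinds were tested. With density Crebbp rose in VEC-null cells on 2 of its 5 tested probe sets (1.12 and 1.22, where the other values were -0.17, 0.39 and 0.54), and 1 gene fell and 1 rose in VEC-positive cells. Out of 12 tested, these density counts are near the shares of all tested probe sets. Cebpb, which dimerises with ATF4, fell with VEC in confluent cells, from a mean of 2509 to 856 (SE 0.083 on the log2 scale, adjusted p = 2.4e-06), and changed by -0.88 in sparse cells. In VEC-positive cells Cebpd fell with density (-1.06, adjusted p = 5.6e-06) and Nfe2l2 rose. Jun passed in the interaction (-1.08, adjusted p = 0.0024). Egln3, an oxygen sensor reported to limit ATF4 protein, fell with VEC in sparse cells (-1.07, adjusted p = 2.1e-05). Btrc, Cul1 and Skp1 had density changes between -0.48 and 0.91 over all their tested probe sets, none of which passed.

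Over the 8 arrays of chip A, the log2 signals of Atf4, Atf5, Trib3, Asns and Psat1 correlated with each other at 0.911 to 0.992, and those of Ddit3 with the others at 0.537 to 0.722. The arrays are 4 cRNA samples with 2 copies each, and the correlations are a description of them. Among other tested probe sets of the same chip whose condition means spanned at least 1 on the log2 scale, the closest by Pearson correlation over the 8 arrays were Banf1, Rsl1d1 and Hspe1 for Atf4 (0.995 to 0.997), Eps8, Grwd1 and Fbl for Atf5 (0.992 to 0.996), and Eif1ax, Hspa1b and Hspa1a for Ddit3 (0.957 to 0.979). They were Nmd3, Hspa8 and Hars for Trib3 (0.99 to 0.993), Rpp40, Mtap and Sestd1 for Chac1 on chip B (0.993 to 0.999), Znrf2, Lrrc59 and Eps8 for Asns (0.997 to 0.999), and Ltv1, Fosl1 and Sprr1a for Psat1 (0.996 to 0.998). No member was among the 3 closest of another.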

How the data were processed

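Per the labels, the authors computed a MAS5 signal per probe set, a linear intensity, with the average of each array set to 500, and MAS5 is also named in the submitters' processing notes. Detection calls were not used here. Gene symbols came from the platform annotation. A total of 66 control probe sets per chip were left out, and 21414 of 24833 probe sets had 1 symbol. With limma 3.58.1 (R 4.3.3), log2(signal + 50) of the 4 conditions was fitted separately for each chip (trended prior, 4 residual degrees of freedom), for 5 contrasts, with Benjamini-Hochberg adjustment over both chips. The fit was tested on simulated data. The members and the lists were chosen with earlier results of these data known. Up to 6 passing genes per list and comparison, ranked by size, were eligible to be named, beside a list's defining genes, whose choice was made after their values were seen, and the 3 probe sets most like each member. Copy numbers did not pair the arrays: copy differences correlated at -0.0885 to 0.078 between conditions. Alternatives covered the offset, filter, scaling, prior, chromosome medians, replicate block, choice of probe set, averaged copies and each copy left out.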

Additional observations from a re-analysis of the deposited data

Results flagged for a closer look

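The density responses of the lines differed, by the interaction test of limma, for 2 second probe sets of members and, by main probe sets, 13 genes of the pathway lists. In the order described above, these lists had 9, 14, 8, 7, 7, 13, 19, 11 and 12 tested genes, some of them shared. Over all tested probe sets 12.2% passed this test. The share of tested list genes that passed is near that, so the count does not set these lists apart. Asns probe set 161221_f_at had an interaction of 1.47 and Psat1 probe set 104813_at one of -1.04, while the brighter probe sets of the same genes gave 0.54 and 0.66 and did not reach a change of 1. The Asns probe set was tested only because sparse VEC-null cells lay above the level needed, and its value rests on that condition. The call of the Psat1 probe set was lost in 9 of 16 alternatives. Among list genes with a smaller fall or a rise in VEC-positive cells were Slc1a4 (1.54), Impact (1.41), Jdp2 (1.37), Mthfd2 (1.34), Xpot (1.29), Pdia4 (1.08), Pdia3 (1.06), Dnajc3 (1.01) and Bcat1 (1.01). The opposite sign was found for Map1lc3b (-1.42), Sec61b (-1.36), Jun (-1.08) and Taldo1 (-1.04). The other 3 tested probe sets of Dnajc3 gave values between -0.01 and 0.28, and the second of Xpot gave 0.54. Second probe sets passed for Gcn1 (-2.56), Crebbp (-1.34) and Pdia6 (-1.01), whose main probe sets did not (0.04, -0.79 and -0.83). None of these differences was compared across cultures.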

How the results depend on the processing

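The counts of members that fell with density, 7 in VEC-null and 5 in VEC-positive cells, stayed within 1.5 times under every alternative tried. The genes behind them changed with second probe sets. Psat1 was then called in neither line (0.168 in VEC-null and -0.868 in VEC-positive cells), and Asns not in VEC-positive cells (-0.439). Slc7a11, by its chip B probe set, entered the counts of both lines. The count for VEC in confluent cells, 1, was 0 with an offset of 200 or averaged copies, 2 with second probe sets or with the brightest probe set on either chip (a choice made after seeing the data), and 0 to 1 over the fits that left out a copy. The count for VEC in sparse cells, 1, was 0 with an offset of 200 or averaged copies, 2 with second probe sets, and 0 to 1 without single copies. The interaction count of 0 was 2 with second probe sets. The replicate block gave the same member counts (1, 1, 5, 7 and 0) and moved no count over all probe sets by 1.5 times, and copies share only a number. Signs turned as follows, the cause not tested. For VEC in confluent cells the fits without 1 copy gave -0.141 to 0.015 for Atf5, -0.01 to 0.092 for Asns by its second probe set and -0.198 to 0.003 for Psat1; Asns was 0.041 by its second probe set, and Psat1 was 0.047 with chromosome medians subtracted. For VEC in sparse cells Ddit3 was -0.151 with chromosome medians subtracted and -0.009 to 0.441 without 1 copy. By its second probe set Psat1 was 0.317 for VEC in sparse cells, 0.168 for density in VEC-null cells and -1.036 in the interaction. The interaction of Trib3 was -0.155 with an offset of 16, -0.059 with quantile normalization, -0.027 with median scaling, -0.037 with chromosome medians subtracted, and -0.246 to 0.287 without 1 copy. An offset of 200 left 590, 689, 1305, 1444 and 1018 calls over all probe sets where the settings used gave 1131, 1388, 2194, 2356 and 1745, and the filter at the 75th percentile left 699, 920, 1529, 1717 and 1195. With 1 cRNA sample per condition, no result separates a condition from its culture, and probe sets near the level needed for testing have understated changes.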
